A study of Mus musculus with 4 samples.

Results

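Transcripts of 8 enzymes of cholesterol synthesis were followed in mouse alveolar type II cells, which line the lung alveolus and secrete surfactant. The members are Hmgcs1, Mvd, Idi1, Fdps, Fdft1, Sqle, Lss and Cyp51, found by the gene name that the array files give each probe. They carry 17 of the 41174 gene probes and make up 8 of 27349 gene names. All of them are synthesis enzymes, and receptors and other genes of cholesterol uptake are described separately as a list. All 17 probes are accounted for, and the brightest probe of each member was well above background on all 4 arrays, so no member depended on a filter on low values.

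The study sorted alveolar type II cells by flow cytometry from lungs of Tlr3-deficient (Tlr3-/-) and wild-type (WT) mice. Tlr3 is an endosomal sensor of double-stranded RNA. Lewis lung carcinoma, a mouse lung cancer line, was placed under the skin of some mice, and lungs were taken 2 weeks later. The 4 groups are Tlr3-deficient with tumor, Tlr3-deficient without tumor, WT with tumor and WT without tumor, all labelled female, and the design asks which genes differ in tumor-bearing mice of each genotype. Each group is 1 array, so there is no replicate check, no p-value is given, and every difference describes a pair of arrays. The labels give neither the age of the mice nor how many were pooled into an array.

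Cholesterol is built from acetyl-CoA through mevalonate, isoprenoid diphosphates, squalene and lanosterol. The transcription factor SREBP-2 raises most enzyme genes of the route when membrane sterol is low, and SCAP and the INSIG proteins hold it in the endoplasmic reticulum when sterol is plentiful. Alveolar type II cells need cholesterol as a minor lipid of surfactant as well as for their own membranes, and they obtain it by synthesis and by uptake of lipoproteins.

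The promoters show what the members have in common before any value is read. RefSeq promoters of the GRCm38.p6 build, each running from 250 bases before to 50 bases after a start site, matched 5 of the 8 members (Hmgcs1, Mvd, Idi1, Lss and Cyp51) and not Fdps, Fdft1 and Sqle. The 250 bases before the start of 3 of them are printed because these hold the most matches to the sterol regulatory element, TCACNCCAC, which SREBP binds, or to the CCAAT box, CCAAT, which the SREBP partner NF-Y binds. Capitals mark those matches on either strand, so that a box on the other strand reads as its reverse complement.
Hmgcs1, chr13:119690101-119690350, plus strand: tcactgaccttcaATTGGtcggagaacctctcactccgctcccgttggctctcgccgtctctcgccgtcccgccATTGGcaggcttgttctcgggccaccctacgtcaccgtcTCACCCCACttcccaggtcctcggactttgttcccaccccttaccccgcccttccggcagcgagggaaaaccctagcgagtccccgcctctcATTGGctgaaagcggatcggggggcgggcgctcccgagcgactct
Mvd, chr8:122443423-122443672, minus strand: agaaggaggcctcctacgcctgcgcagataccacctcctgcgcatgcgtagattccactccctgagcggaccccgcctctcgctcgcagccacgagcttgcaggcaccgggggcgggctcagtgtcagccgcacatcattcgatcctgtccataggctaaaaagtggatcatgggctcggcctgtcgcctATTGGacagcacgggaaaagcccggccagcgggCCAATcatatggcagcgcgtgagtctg
Idi1, chr13:8885356-8885605, plus strand: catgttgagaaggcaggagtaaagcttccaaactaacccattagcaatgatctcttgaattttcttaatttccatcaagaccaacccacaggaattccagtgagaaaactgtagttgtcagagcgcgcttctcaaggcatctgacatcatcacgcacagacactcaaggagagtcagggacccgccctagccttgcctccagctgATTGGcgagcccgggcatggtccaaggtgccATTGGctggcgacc

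The consensus sterol regulatory element was present in 1 of the 5 promoters, that of Hmgcs1, from -137 to -129 with the start site counted as 0, and in 1.24% of all 32851 promoters. The CCAAT box was present in 5 of 5, against 37.4% of all promoters. The match nearest before the start lay at -45 to -41 in Hmgcs1, -27 to -23 in Mvd, -14 to -10 in Idi1, -62 to -58 in Lss and -29 to -25 in Cyp51. The GC box, GGGCGG, which SP1 binds, was also present in 5 of 5, against 35.7% of all promoters. No match in these promoters overlapped a match to another of the motifs. Of the 12 other synthesis genes described below, 11 had the CCAAT box, 10 the GC box and 0 the sterol regulatory element in a promoter. A match is a description of letters and not a site shown to be bound.

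**Figure D1:**
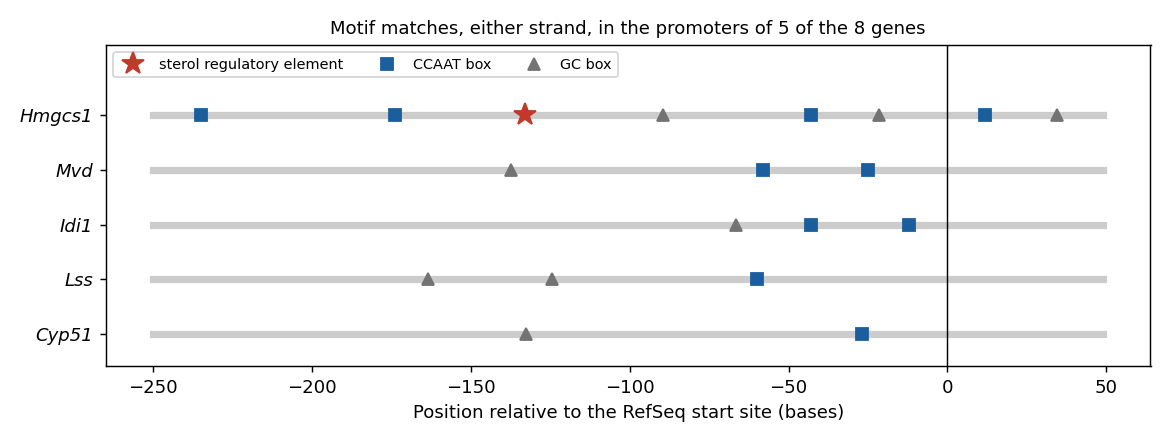
Matches to 3 motifs in the RefSeq promoters of 5 members, plotted as position in bases from the start site at 0. A square (CCAAT box) and a triangle (GC box) occur in every promoter, and the star (sterol regulatory element) occurs in Hmgcs1 alone, at -137 to -129.

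Levels are log2 processed intensities relative to the 75th percentile of the same array, so that 0 is the brightness which 1 in 4 probes exceed. That percentile was 555 to 904 intensity units, 61.0% to 65.4% of gene spots were well above background, and no spot was saturated. The number of arrays limits the precision. Replicate spots gave a standard deviation (SD) of a log2 difference between arrays of 0.109 for Tlr3-deficient with against without tumor, 0.287 for WT with against without tumor, 0.110 between genotypes with tumor and 0.293 between genotypes without tumor. The WT array without tumor enters both of the wider ones. In these the spread was uneven over the array, 0.356 in columns 1 to 51 against 0.099 in columns 52 to 85 for WT, and 0.363 against 0.137 between genotypes without tumor. The brightest probes of Idi1, Lss and Cyp51 lie in columns 52 to 85 and those of the other 5 members in columns 1 to 51. The scanner's own error model gave about 0.204 for each member. Tlr3 itself was not well above background on the array labelled Tlr3-deficient without tumor but was so on the other 3, and its 2 probes were lower in Tlr3-deficient cells by 1.26 and 1.35 (log2) with tumor and by 1.54 and 1.52 without tumor. In the authors' deposited value table the same 2 probes instead differ between genotypes with tumor by -7.17 and -8.25.

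The array labelled Tlr3-deficient without tumor stands apart from its label. All 4 arrays are labelled female, but Ddx3y, Eif2s3y, Kdm5d and Uty, all genes of the Y chromosome, were well above background on this array alone. Xist, the transcript of the inactive X chromosome, had a level of -4.05 there, against 3.80 on the Tlr3-deficient array with tumor, 4.04 on the WT array with tumor and 4.05 on the WT array without tumor. Every value below that uses this array is therefore a value of the array so labelled. The arrays lay on 3 slides, and the WT tumor array shared a slide with the array labelled Tlr3-deficient without tumor, so that effects of slide and of group cannot be told apart.

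The pattern that the 8 members share is a low level on that array. All 8 had their lowest level there, as did 16 of the 17 probes. Of 15676 genes that passed background on every array, 29.5% had their lowest level on it. The highest level was on the Tlr3-deficient tumor array for 3 members, on the WT tumor array for 3 and on the WT array without tumor for 2. In sorted cells measured in bulk, fewer cells of a type and less RNA per cell cannot be told apart.

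The early steps make and spend mevalonate. Hmgcs1, which condenses acetyl-CoA units into HMG-CoA, had log2 levels of 4.71 with tumor and 4.21 without in Tlr3-deficient cells, and 4.98 with tumor and 4.90 without in WT cells. Only the array labelled Tlr3-deficient without tumor was clearly lower, by 0.50 from the next lowest. Mvd, which removes a carboxyl group from mevalonate diphosphate to give isopentenyl diphosphate, had 1.33 with tumor and 0.60 without in Tlr3-deficient cells, and 1.26 with tumor and 1.43 without in WT cells. Its other 3 arrays lay within 0.17 of each other. Of the 2 dimmer Hmgcs1 probes, A_52_P119039 followed another course, with -0.38 with tumor and -1.58 without in Tlr3-deficient cells, and -0.14 with tumor and -1.67 without in WT cells. It was the only one of the 17 probes that was not lowest on the array labelled Tlr3-deficient without tumor, and the files give it the accession of a cloned cDNA rather than the Hmgcs1 reference transcript.

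The isoprenoid steps follow. Idi1, which isomerises isopentenyl diphosphate, had levels of 3.99 with tumor and 3.41 without in Tlr3-deficient cells, and 4.19 with tumor and 3.98 without in WT cells. Fdps, which makes farnesyl diphosphate for sterols and for protein prenylation, had 3.51 with tumor and 2.41 without in Tlr3-deficient cells, and 3.08 with tumor and 3.22 without in WT cells. Fdps was the member with the widest range over the arrays, 1.10, and it had both its highest and its lowest level in Tlr3-deficient cells. Its second probe is dimmer and annotated to a cloned cDNA. That probe had -1.79 with tumor and -2.99 without in Tlr3-deficient cells, and -1.77 with tumor and -2.46 without in WT cells. The probes therefore place the WT tumor array differently, above the WT array without tumor in the dimmer probe and below it in the brighter one.

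The committed steps to sterol come next. Fdft1, squalene synthase, joins farnesyl units and had levels of 1.99 with tumor and 1.32 without in Tlr3-deficient cells, and 1.95 with tumor and 2.17 without in WT cells. Sqle, squalene epoxidase and a slow step of the route, had 3.41 with tumor and 2.56 without in Tlr3-deficient cells, and 3.33 with tumor and 3.22 without in WT cells. In both genes the other 3 arrays lay close together, within 0.22 for Fdft1 and 0.19 for Sqle. The brightest probes of Fdps and Fdft1 are printed because each spans an intron on the genome and so reads spliced transcript. Coordinates are those of the array annotation.
Fdps probe A_51_P379798, mm9 chr3:88898812-88898952, minus strand: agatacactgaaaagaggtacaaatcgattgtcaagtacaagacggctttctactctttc
Fdft1 probe A_51_P485946, mm9 chr14:63765769-63770009, minus strand: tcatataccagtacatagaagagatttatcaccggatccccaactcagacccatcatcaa

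The ring-closing and first ring-trimming steps end the list of members. Lss, which folds epoxidised squalene into lanosterol, had levels of 1.12 with tumor and 0.16 without in Tlr3-deficient cells, and 0.91 with tumor and 0.41 without in WT cells. Both tumor arrays were above both arrays without tumor at this probe. The other 2 Lss probes differed from it in WT cells, where tumor minus no tumor was -0.21 and -0.30 instead of 0.50. In the array annotation those 2 carry the Lss reference transcript, and the brightest probe carries an Ensembl transcript instead. Cyp51, which removes a methyl group from lanosterol, had -0.29 with tumor and -0.74 without in Tlr3-deficient cells, and -0.02 with tumor and -0.26 without in WT cells. All 3 Cyp51 probes were lowest on the array labelled Tlr3-deficient without tumor.

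**Figure D2:**
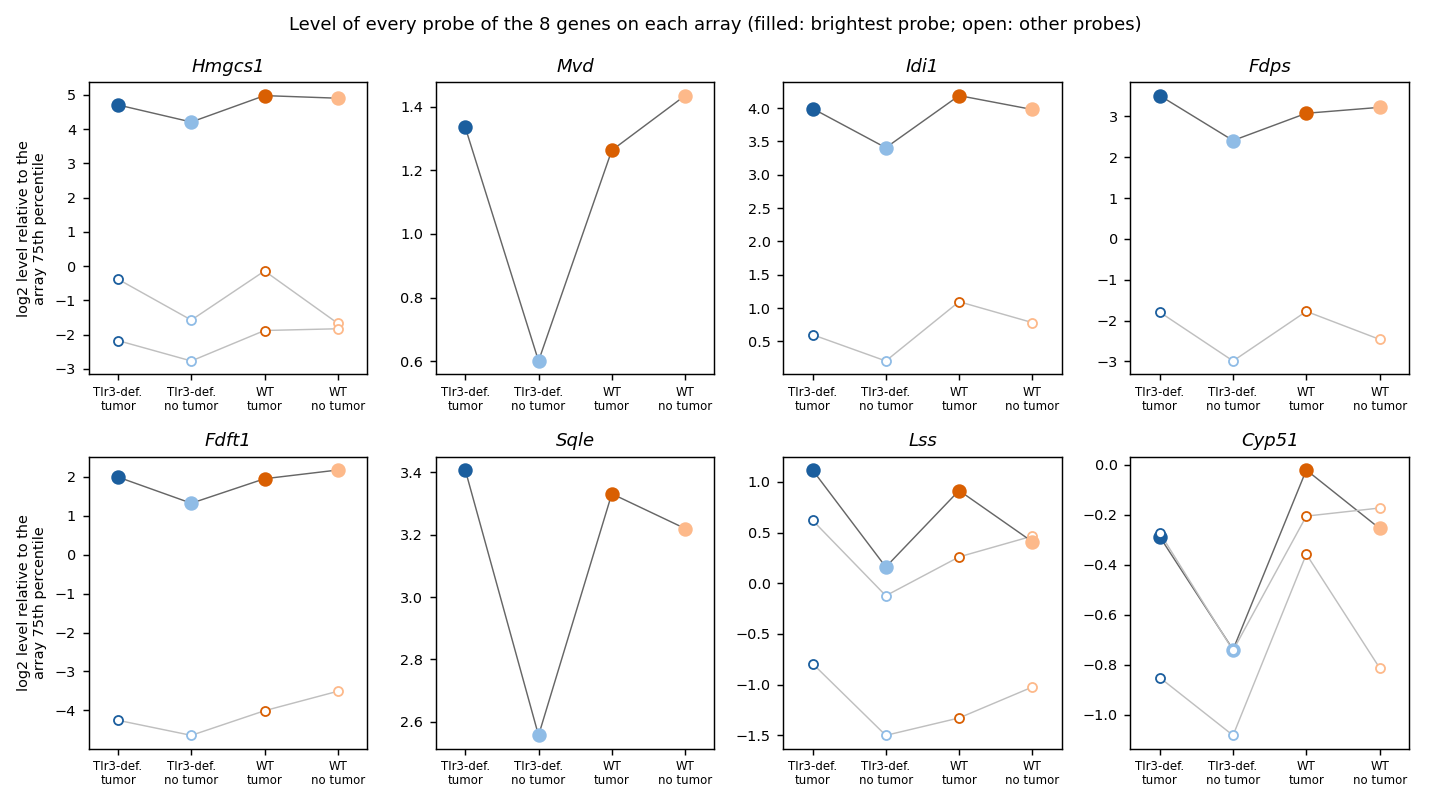
Log2 level relative to the 75th percentile of the array (vertical axes, scaled per gene) for every probe of the 8 members on the 4 arrays, with grey lines joining the values of a probe. Filled points are the brightest probe of the gene, and each is lowest on the array labelled Tlr3-deficient without tumor.

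In Tlr3-deficient cells all 8 members were higher with tumor than without. The median log2 difference was 0.70 and the range 0.45 to 1.10, against a median of -0.01 over the 17999 genes tested, of which 48.9% were above 0. At least 2-fold higher was 1 member, Fdps at 2.14-fold, where 4.51% of all genes tested were at least 2-fold higher, and 3.90% were at least 2-fold lower. Lss followed at 1.94-fold and Sqle at 1.80-fold. All 17 probes were above 0, 3 of them by at least 2-fold, and all 8 members differed by over 2 scanner errors. Leaving aside the array labelled Tlr3-deficient without tumor leaves no value for this comparison.

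Between genotypes without tumor, all 8 members were lower in the cells labelled Tlr3-deficient. The median log2 difference was -0.68 and the range -0.85 to -0.25, against a median of -0.04 over 17487 genes, of which 54.7% were below 0. None of the 8 was at least 2-fold lower, where 2.34% of all genes tested were and 5.90% were at least 2-fold higher. Fdft1 was 1.81-fold lower, Mvd 1.78-fold lower and Fdps 1.76-fold lower, while Lss was 1.19-fold lower. All 8 exceeded the replicate-spot SD of their own part of the array, and 7, without Lss, that of the whole array. The other 2 Lss probes were at -0.59 and -0.48, and the mean of its probes was -0.44. These values share the array labelled Tlr3-deficient without tumor with the tumor comparison in that genotype, so they are not independent of it.

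The size of this genotype difference depends on what the arrays are scaled to. The 11 alveolar type II markers, among them the surfactant protein genes, were well above background on every array. By brightest probe, they too were mostly lower in the cells labelled Tlr3-deficient without tumor. There 10 of 11 were below 0 with a median of -0.30, and Sftpc was the exception at 0.54. Scaled to the mean log2 level of these markers, a setting chosen after the data were seen, the members' median was -0.36, and Lss was at 0.07. Scaled to the median marker level, also chosen after the data were seen and tried first, it was -0.11. That median rests on 1 marker per array, Sftpb on 3 arrays and Lamp3 on the array labelled Tlr3-deficient without tumor. The probes of Lamp3 disagreed between genotypes without tumor, at -0.65 for the brightest and 0.43 over the mean of probes. Under the same 2 scalings the median tumor difference in Tlr3-deficient cells was 0.64 and 0.32, and that of Fdps was 1.04 and 0.72, the second under 2-fold.

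In WT cells the members did not move together with tumor. The median log2 difference was 0.09 and the range -0.22 to 0.50, with 5 members above 0 and 3 below. None of the 8 reached 2-fold, where 5.65% of the 17823 genes tested were at least 2-fold higher and 1.55% at least 2-fold lower. Over the whole array only Lss exceeded the replicate-spot SD, and its other probes pointed the other way. Against the SD of their own part of the array, Idi1 at 0.21 and Cyp51 at 0.23 also exceeded it, 3 members in all. The second Idi1 probe was at 0.31. The other Cyp51 probes disagreed, A_52_P636752 at -0.03 and A_51_P485791 at 0.45. Of the 17 probes, 9 were above 0 and 8 below. At least 2-fold higher was 1 probe, the dimmer Hmgcs1 probe A_52_P119039 at 1.53. Between genotypes with tumor the median was 0.06 and the range -0.27 to 0.43, with 5 above 0 and 3 below. Of all genes tested, 43.1% were above 0 there. The replicate-spot SD, of the whole array and of their own part, was exceeded by 5 members. Fdps and Lss were above 0, and Hmgcs1, Idi1 and Cyp51 below. No member reached 2-fold there either, where 2.91% of 18118 genes were at least 2-fold higher and 2.64% lower. These are the 2 comparisons that do not use the array labelled Tlr3-deficient without tumor.

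**Figure D3:**
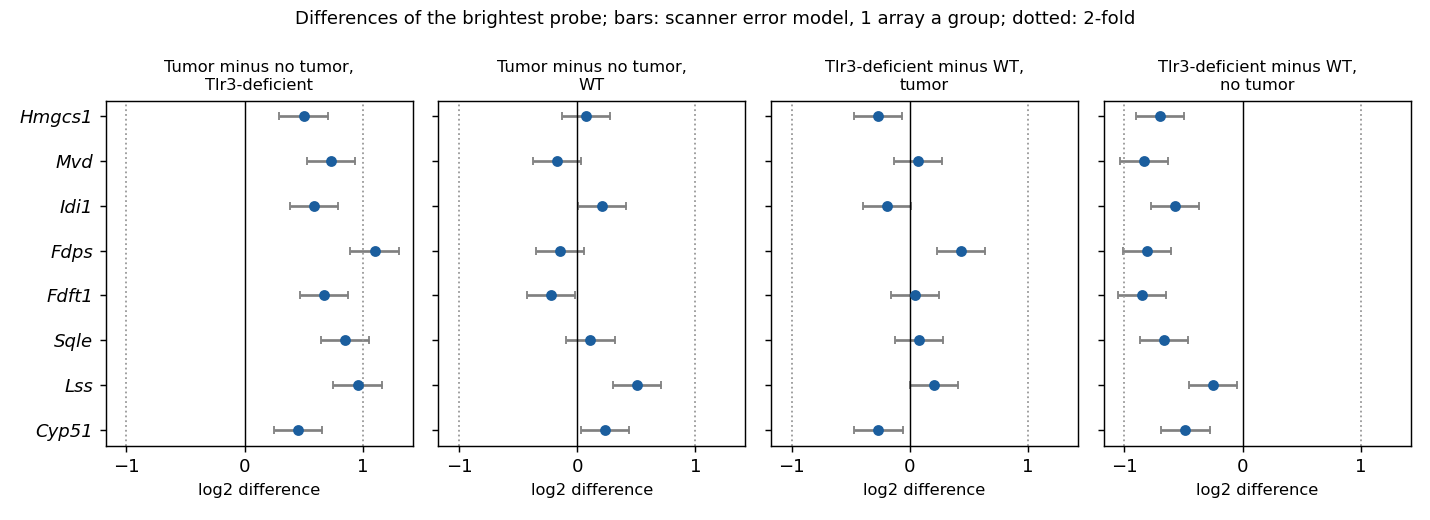
Log2 difference of the brightest probe of each member in 4 comparisons, with bars for the scanner's error of about 0.204 and 1 array a group. All 8 points lie right of 0 for tumor in Tlr3-deficient cells and left of 0 between genotypes without tumor, and on both sides of 0 in the other panels.

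By brightest probe, the tumor difference in Tlr3-deficient cells minus that in WT cells was above 0 for all 8 members. The median was 0.60 and the range 0.22 to 1.24, against a median of 0.02 over the 15672 genes tested, of which 51.8% were above 0. This difference again uses the array labelled Tlr3-deficient without tumor, so it is not independent of the values above. Of the 17 probes, 15 were above 0 and 2 below, a dimmer Hmgcs1 probe at -0.34 and a dimmer Cyp51 probe at -0.22. At least 2-fold was 1 member, Fdps, at 1.24 for its brightest probe but 0.88 for the mean of its probes, against 2.12% of 15672 genes at least 2-fold higher and 4.50% at least 2-fold lower. Mvd was at 0.90 and Fdft1 also at 0.90, and Cyp51 was at 0.22. The replicate-spot SD of this difference was 0.298 over the whole array, 0.370 in columns 1 to 51 and 0.146 in columns 52 to 85, where the Cyp51 probe lies. The difference between genotypes was not tested, since each group has 1 array. Scaled to the mean level of the type II markers the median was 0.39, and scaled to their median level it was -0.11.

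Markers of other cell types also differed between the arrays, some with tumor in both genotypes. Their part in the members' values was not tested. The 8 alveolar type I markers had a summed linear level of 191 with tumor and 321 without in Tlr3-deficient cells, and 145 with tumor and 226 without in WT cells. They were all lower with tumor in both genotypes. The 5 fibroblast markers had a summed level of 50.2 on the array labelled Tlr3-deficient without tumor and of 22.5 to 29.4 on the others. The 5 endothelial markers likewise had 27.4 there and 15.6 to 20.0 on the others. The 7 neutrophil markers on the array were higher with tumor in both genotypes, with summed levels of 67.8 with tumor and 3.42 without in Tlr3-deficient cells, and 106 with tumor and 3.84 without in WT cells. Of these 7, S100a8, S100a9, Retnlg and Ltf were well above background on both arrays without tumor, and Csf3r, Camp and Cxcr2 on neither. The red cell sum was highest on the array labelled Tlr3-deficient without tumor, at 271 against 116 to 245 on the others. The macrophage, B and plasma cell and ciliated cell sums were lowest there, at 6.73, 5.38 and 12.4. Their highest sums were 16.1, 18.8 and 21.7. T cell sums ran from 0.117 to 0.241. Jchain, the joining chain of secreted antibodies, was 165-fold higher with tumor in Tlr3-deficient cells and 2.97-fold higher in WT cells.

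The other 12 genes reported of the sterol route also lay low on the array labelled Tlr3-deficient without tumor for the most part. Between genotypes without tumor 12 of 12 were below 0 with a median of -0.54, or 11 of 12 with a median of -0.42 over the mean of probes, where Mvk was at 0.40. With tumor in Tlr3-deficient cells 9 of 12 were above 0 with a median of 0.42. None was at least 2-fold different in any comparison. Tm7sf2, a sterol reductase, had levels of 2.31 with tumor and 1.54 without in Tlr3-deficient cells, and 2.36 with tumor and 2.29 without in WT cells. Msmo1, a methyl sterol oxidase, had 4.77 with tumor and 4.11 without in Tlr3-deficient cells, and 4.85 with tumor and 4.86 without in WT cells. Both repeat the course of the members, low on a single array.

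Not every enzyme did so. Pmvk, phosphomevalonate kinase, was lower with tumor in both genotypes, by 0.55 in Tlr3-deficient and by 0.74 in WT cells. Ebp, a sterol isomerase, had a level of 4.12 both with and without tumor in Tlr3-deficient cells. Over all 20 synthesis genes, members included, 20 were below 0 between genotypes without tumor (19 over the mean of probes) and 17 had their lowest level on the array labelled Tlr3-deficient without tumor.

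**Figure D4:**
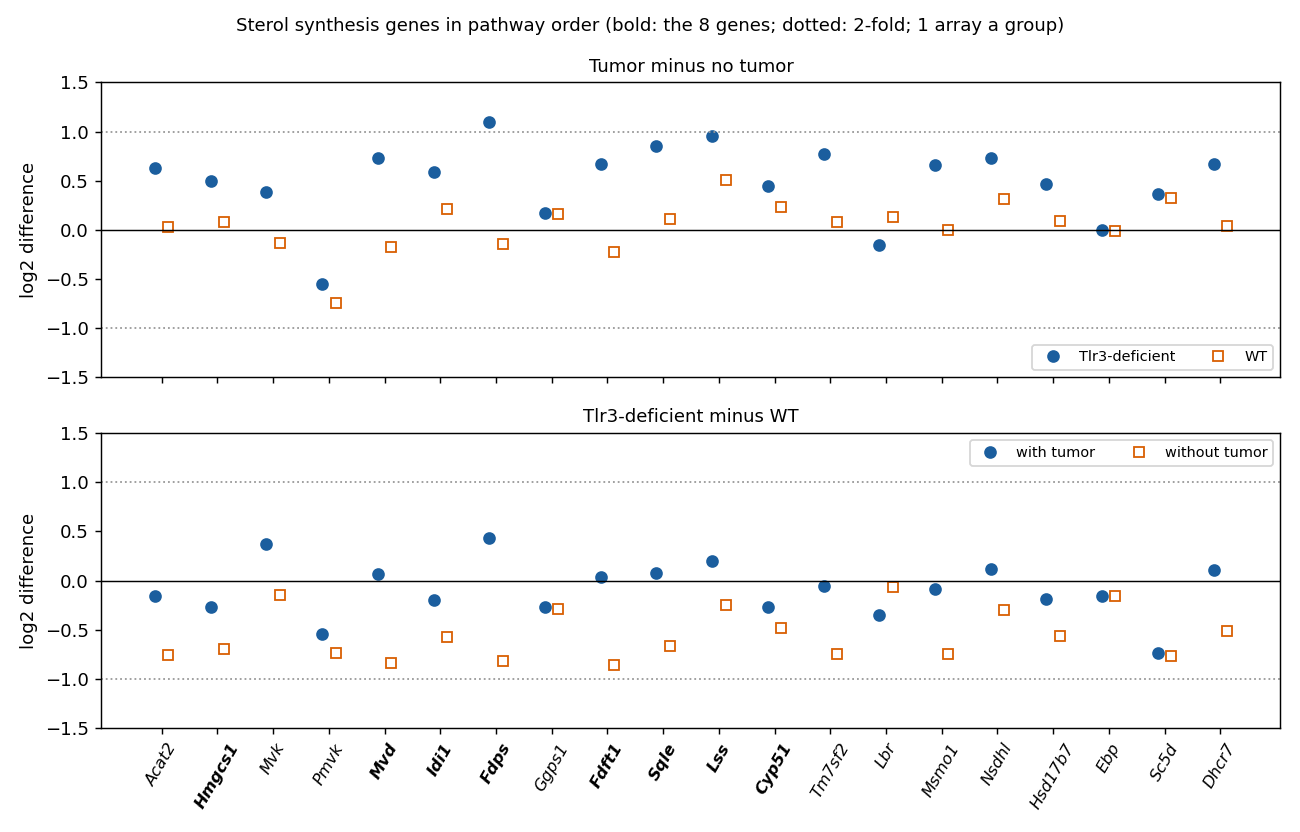
Log2 differences of 20 sterol synthesis genes in pathway order, members in bold, for tumor minus no tumor (upper panel) and Tlr3-deficient minus WT (lower panel). In the lower panel all 20 open squares, without tumor, lie below 0, while the filled circles, with tumor, lie on both sides.

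Uptake and traffic genes were less uniform. Of 11 reported, 9 were well above background, and between genotypes without tumor 5 were above 0 and 4 below, with a median of 0.09, but 4 above and 5 below with normexp, a background correction that starts from the raw spot and local background signals. Scarb1, a receptor for high-density lipoprotein, was lower by 0.55, though by only 0.08 with normexp, and Stard4, a sterol carrier, was lower by 0.51 in cells labelled Tlr3-deficient without tumor. Mylip, an E3 ubiquitin ligase that limits lipoprotein uptake, was higher by 0.77 in the same comparison, and by 0.47 with normexp. By brightest probe, the only member of the list past 2-fold in any comparison was Npc1, the lysosomal cholesterol exporter, 2.23-fold higher with tumor in WT cells. The probes of Npc1 disagreed, since their mean gave a log2 difference of 0.14 there, -1.30 for tumor in Tlr3-deficient cells and 1.40 between genotypes without tumor.

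Values of the regulators of the route depended on the background correction and the probe. By brightest probe, all 7 SREBP processing genes well above background were below 0 between genotypes without tumor, with a median of -0.21, and none reached 2-fold. With normexp 5 of 7 were below 0 with a median of -0.11, and Scap and Erlin2 were above 0. Insig1, itself an SREBP target, was at -0.71, but at -0.11 with normexp. Srebf2, which encodes SREBP-2, had levels of 4.64 with tumor and 4.17 without in Tlr3-deficient cells, and 3.96 with tumor and 4.37 without in WT cells. This rests on 1 probe, which was lowest on the WT tumor array. Over the mean of Srebf2 probes tumor minus no tumor in WT cells was 0.24 instead of -0.41, and the genotype difference with tumor was -0.13 instead of 0.68.

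Neighbouring pathways differed in part. Of 11 fatty acid synthesis genes, 9 were below 0 between genotypes without tumor with a median of -0.32, and Me1, malic enzyme, was 2.26-fold lower, a log2 difference of -1.18 that was -0.63 and so under 2-fold with normexp. Scd1, a fatty acid desaturase, was lower by 0.56 and, with normexp, by 0.92, whereas Fasn, fatty acid synthase, was lower by 0.15 and, with normexp, by 0.39. Of 7 tested genes of cholesterol efflux and the sterol-sensing LXR receptors, 5 were above 0 with a median of 0.30, or 4 with a median of 0.12 with normexp. Abca1, the cholesterol exporter, was higher by 0.57, while Apoe, a lipid carrier, was lower by 0.83, and with normexp these were 0.15 and -0.39. Of 8 genes that use isoprenoids, 6 were below 0 with a median of -0.15.

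**Figure D5:**
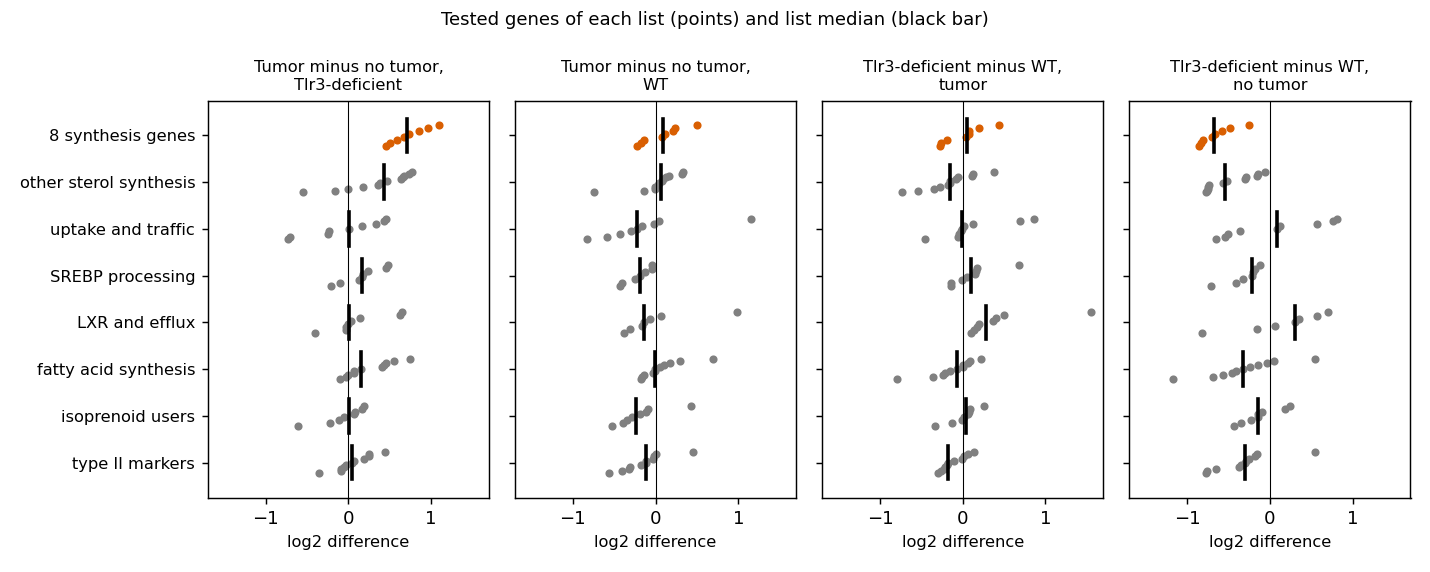
Log2 differences of the tested genes of each list (points) and the list median (black bar) in 4 comparisons. The medians of the members and of the other sterol synthesis genes lie furthest left between genotypes without tumor, at -0.68 and -0.54. The alveolar type II markers have a median of -0.30 there, and the single gene furthest left is Me1 at -1.18.

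Genes were also ranked by how near their 4 values, each centred on its own mean, came to the members' median profile. That profile was 0.15 with tumor and -0.52 without in Tlr3-deficient cells, and 0.23 with tumor and 0.13 without in WT cells. Of 15664 genes ranked, the nearest 5 were Lrrc51, Tmem202, Ccdc89, Tmem121 and Fabp1, none of them a gene of the sterol route. Tm7sf2 ranked 23, Msmo1 29, Acat2 41, Scd1 65, Hsd17b7 67 and Dhcr7 93. Nsdhl at 598 and Ggps1 at 961 lay at distances of 0.31 and 0.36, nearer than the members Fdps at 0.39 and Lss at 0.49. The remaining synthesis genes ranked further off, with Sc5d at 2431, Ebp at 3529, Mvk at 4055, Lbr at 5698 and Pmvk at 13464. Sc5d, at a distance of 0.47, was still nearer than Lss. With 4 points that share arrays, likeness of this kind is a description only.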

How the data were processed

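Total RNA of sorted alveolar type II cells was labelled with Cy3 and measured on 1-colour Agilent mouse arrays, 1 array a group. The scanner images were read by the authors with Agilent Feature Extraction, version 10.7.3.1 in the file headers. The deposited processed intensity is background-subtracted and detrended within each array, with surrogate values for signals too low to measure, and is not scaled between arrays, per the file headers. The deposited log2 value table correlated at 0.9993 to 0.9998 with log2 processed intensity, with column medians of 6.31 to 6.32 over gene probes. Its values appear normalized between arrays by a method not given in the sources used here, and it served as an alternative.

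Here log2 processed intensity minus the 75th percentile of the array was used. Outlier spots were dropped, repeated spots of a probe averaged, and the brightest probe stood for its gene. Of 41174 probes, 27668 were named by RefSeq accession and 33716 carried a current symbol. A gene was tested when well above background on at least 1 array compared (all 4 for the difference of tumor differences) and called at 2-fold. A gene below background on 1 array was counted by its bound. The members, lists and comparisons were chosen with earlier results of these data known. Members were named in full, list genes where past 2-fold or like the members in course, and the 5 nearest patterns by distance. Some list genes named for their contrast (Mvk, Pmvk, Ebp, Scarb1, Mylip, Srebf2, Insig1, Scap, Erlin2, Fasn, Abca1, Apoe) were chosen after their values were seen. Some genes of the synthesis and uptake lists are not reported here, and the counts and medians leave them out.

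Alternatives were normexp background correction (limma 3.58.1, R 4.3.3, offset 50), quantile normalization, median centring, the mean of all probes, the value table, subtraction of the local median difference, and no filter on dim probes. Scaling to type II markers was added after the data were seen. Tables were made with Python 3.11.15, pandas 2.3.3 and numpy 2.4.6. Replicate-spot SDs cover spots, not animals.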

Additional observations from a re-analysis of the deposited data

Results flagged for a closer look

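Fdps, farnesyl diphosphate synthase, differed between genotypes in opposite directions with and without tumor at its brightest probe. It was higher by 0.43 (log2) in Tlr3-deficient than in WT cells with tumor, and lower by 0.81 without tumor, so that the 2 genotype differences lie 1.24 apart. Each exceeds its own replicate-spot SD, but with 1 array a group the difference was not tested, and the value without tumor rests on the array labelled Tlr3-deficient without tumor. The second Fdps probe, annotated to a cloned cDNA, is dimmer, at 95.6 to 261 intensity units against 4030 to 10300. It gave -0.02 with tumor and -0.53 without, so the opposite direction is in 1 Fdps probe only. Over the mean of both probes the genotype difference with tumor was 0.21, and the 2 genotype differences lay 0.88 apart. The brightest probes of Mvd, Fdft1, Sqle and Lss also had opposite signs. They were at 0.07, 0.04, 0.08 and 0.20 with tumor and at -0.83, -0.85, -0.66 and -0.25 without. In Lss all 3 probes did so, and both values of the brightest exceeded the SD of its own part of the array. The values of Mvd, Fdft1 and Sqle with tumor did not exceed theirs.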

How the results depend on the processing

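No paired analysis was possible because each group has 1 array and the labels give no replicate numbers. For the same reason no replicate could be left out. Of 320 member values under the alternatives, 300 kept their sign and 20 changed it. By comparison, 9 of the 20 were for tumor in WT, 4 for genotype with tumor, 4 for the difference of tumor differences, 3 for genotype without tumor and 0 for tumor in Tlr3-deficient cells. The members' medians moved by over 1 replicate-spot SD only under scaling to type II markers. With their median level the medians were 0.32 for tumor in Tlr3-deficient, 0.42 for tumor in WT, -0.076 for genotype with tumor, -0.11 for genotype without tumor and -0.11 for the difference of tumor differences. With their mean level the values that moved were 0.17 for genotype with tumor and -0.36 for genotype without tumor.

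Members at least 2-fold different numbered 2 rather than 1 for tumor in Tlr3-deficient cells with normexp, the value table and the local window, and 0 with the median marker level. For the difference of tumor differences they numbered 3 with median centring, and 0 with the mean of all probes and with the median marker level. Over all genes, normexp gave 732 for tumor in Tlr3-deficient, 586 for tumor in WT, 428 for genotype with tumor and 737 for genotype without tumor, against 1513, 1284, 1006 and 1440. Without the filter on dim probes the counts were 3010, 2884, 2304 and 3120, and 4348 instead of 1037 for the difference of tumor differences.

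The share of called genes that were higher was 78.4% for tumor in WT, but 66.4% after quantile normalization and 63.7% after median centring. For genotype without tumor it was 71.6%, but 62.0% with either. For the difference of tumor differences it was 32.0%, but 40.2% with quantile normalization, 39.9% with the value table and 49.6% with median centring. Median centring put the median of all genes at -0.15 for tumor in WT, -0.14 for genotype without tumor and 0.17 for the difference of tumor differences. Normexp put it at -0.13 and -0.14 for the first pair, and no filter at -0.15 for tumor in Tlr3-deficient. Relative to those shifts the members' medians under median centring were 0.09, -0.64 and 0.58.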
